A study of Mus musculus with 6 samples.

Results

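The tendon and fascia genes measured here were Mkx, Scx, Tnmd, Cilp2, Fmod, Thbs4, Comp, Chad, Kera and Prg4, 10 of the 19938 genes represented in the deposited table. Each was chosen as a probe set whose only gene symbol in the platform annotation is that of the gene, and each had exactly 1 such probe set, so that 10 of 35557 probe sets are described. The study compared whole tibialis anterior muscle, a limb muscle, on 6 Affymetrix arrays. There were 3 arrays of muscle labelled MLC-SOCS-3, a transgene that the labels place on C57Bl6J, and 3 arrays of muscle from control C57Bl6J mice. All mice were 11 weeks old and had been starved for 6 h, and the frozen muscle gave 300 ng of total RNA for each labelling. The labels do not say what drives the transgene in which cells, how much of the distal tendon was left on the muscle, or whether the replicates are separate animals. The p-values therefore cover only how far these arrays scatter, and that scatter may be technical.

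Tendon cells make a dense matrix of aligned type I collagen. The transcription factors scleraxis (Scx) and mohawk (Mkx) specify and maintain these cells, and tenomodulin (Tnmd), a membrane glycoprotein, is the usual marker of their mature state. Small leucine-rich proteins such as fibromodulin control how collagen fibrils grow and join, while thrombospondins such as COMP and thrombospondin 4 bridge matrix molecules where tendon carries load or meets muscle. Related fibroblasts lie in the fascia around muscle bundles, so that RNA of a whole muscle can include theirs.

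Across the 10 genes the comparison of muscle labelled MLC-SOCS-3 with control muscle gave no call. The genes with the clearest lower values in muscle labelled MLC-SOCS-3 were Cilp2 (log2 difference -0.36 ± 0.08, SE) and Mkx (-0.35 ± 0.07), followed by Comp (-0.23 ± 0.09). In these 3 genes the groups did not overlap, which for Comp did not hold once each array was centred on its median. Scx was at -0.28 ± 0.13 with overlapping groups. Tnmd, Fmod, Thbs4, Chad and Kera varied more among the 3 control arrays than between the groups, and control replicate 1 gave the lowest value of all 6 arrays for each of them. Prg4 varied most among the arrays labelled MLC-SOCS-3.

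Limma, a linear model with moderated variances, gave no member an adjusted p under 0.05 after Benjamini-Hochberg adjustment over all 35557 probe sets. It called 0% of all genes and none of the 35557 probe sets, of which 2105 had an unadjusted p under 0.05. Of the 10 tendon and fascia genes, 3 had an unadjusted p under 0.05, all lower, where 3.5% of all genes were lower at that level. Likewise 3 did not overlap between groups, all lower, where 7.76% of all genes did so in that direction. The median difference of the 10 genes was -0.19, with 7 negative, against -0.016 over all genes, of which 56.2% were negative.

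The check of the transgene did not bear out the labels. The brighter Socs3 probe set read 7.07, 7.12 and 7.25 on the arrays labelled MLC-SOCS-3, against 7.37, 7.41 and 7.43 on the control arrays, a difference of -0.26 ± 0.07 (SE, limma, adjusted p = 0.80). Its other probe set read 6.15, 6.15 and 6.12 on the arrays labelled MLC-SOCS-3, against 6.46, 6.40 and 6.23 on the control arrays, a difference of -0.22 ± 0.08 (SE, limma, adjusted p = 0.82). Whether the probes of either set lie in the part of the gene that the transgene carries is not stated in the labels, so every direction is given for the arrays as labelled. Over all probe sets the arrays correlated with one another at r = 0.988 to 0.991 and had medians of 5.98 to 6.04. The table holds no detection calls. Of the 10 genes, 9 lay above the median probe set of the table (5.99), and Mkx lay below it, where differences are compressed.

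**Figure D1:**
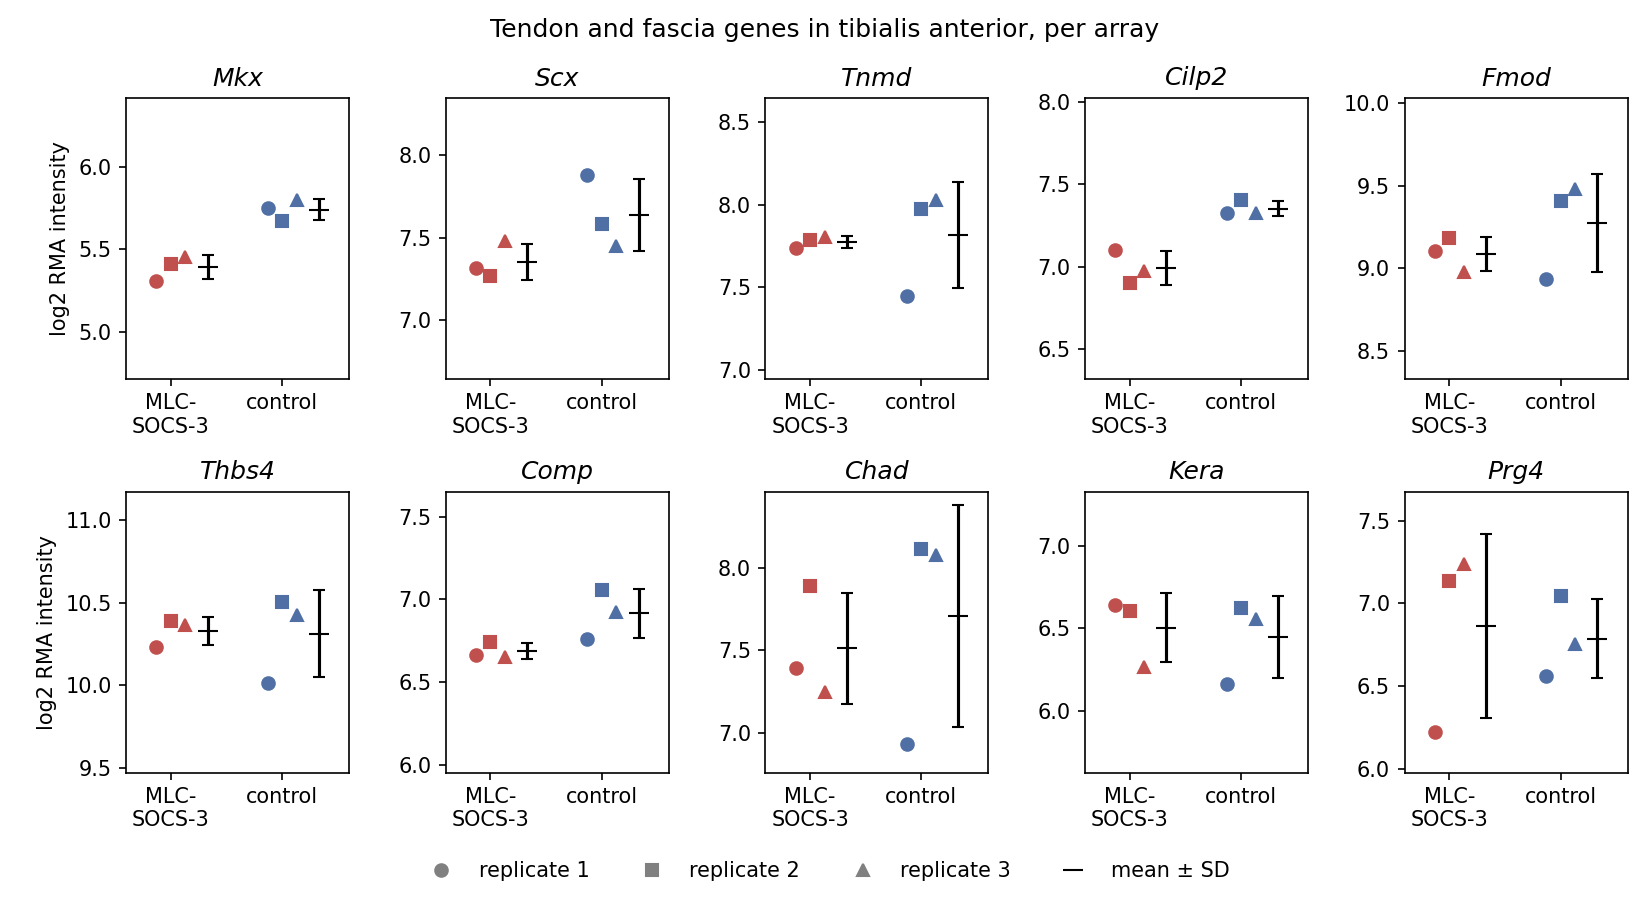
Log2 RMA intensity of each gene (vertical axis, the same span of values in every panel) on the 3 arrays labelled MLC-SOCS-3, left, and the 3 control arrays, right, with the replicate number as the symbol and the mean ± SD as the black mark. The groups are separate for Mkx, Cilp2 and Comp, and control replicate 1 is the lowest point for Tnmd, Fmod, Thbs4, Chad and Kera.

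The transcription factor genes come first. Mkx encodes mohawk, a homeodomain protein that maintains collagen production in tendon. It read 5.31, 5.41 and 5.45 on the arrays labelled MLC-SOCS-3, against 5.75, 5.67 and 5.80 on the control arrays. The groups did not overlap, and the spread within each was small, with means of 5.39 ± 0.07 in muscle labelled MLC-SOCS-3 and 5.74 ± 0.06 in control muscle (SD, n = 3 each). The difference, -0.35 (95% interval -0.52 to -0.17), equals a 1.27-fold difference. It missed the threshold in limma (adjusted p = 0.73, unadjusted p = 0.0029). By unadjusted p, Mkx ranked 46 among the 19938 genes.

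Scx encodes scleraxis, a basic helix-loop-helix factor that marks tendon progenitors and binds short E-box sequences. Its values were 7.32, 7.27 and 7.48 on the arrays labelled MLC-SOCS-3, against 7.88, 7.58 and 7.45 on the control arrays. The groups overlapped, because MLC-SOCS-3 replicate 3 lay above control replicate 3. Control replicate 1, the lowest array for 5 other members, was the highest for Scx. The difference of -0.28 (95% interval -0.60 to 0.03) had an adjusted p of 0.83 in limma.

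Tnmd, Fmod, Chad and Thbs4 had similar profiles over the 6 arrays, and the 250 bases before their annotated starts are shown here for that reason. RefSeq's promoter table for GRCm38.p6 held 6 of the 10 members, these 4 with Cilp2 and Kera. Capitals mark the E-box letters CANNTG, a palindrome that reads alike on both strands and is the kind of sequence that scleraxis binds.
Tnmd, chrX:133850758-133851007, plus strand: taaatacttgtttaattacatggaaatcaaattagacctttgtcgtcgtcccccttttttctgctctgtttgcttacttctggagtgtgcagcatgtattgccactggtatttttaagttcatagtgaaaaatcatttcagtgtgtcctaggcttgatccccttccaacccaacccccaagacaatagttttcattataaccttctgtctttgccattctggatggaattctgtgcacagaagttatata
Fmod, chr1:134037004-134037253, plus strand: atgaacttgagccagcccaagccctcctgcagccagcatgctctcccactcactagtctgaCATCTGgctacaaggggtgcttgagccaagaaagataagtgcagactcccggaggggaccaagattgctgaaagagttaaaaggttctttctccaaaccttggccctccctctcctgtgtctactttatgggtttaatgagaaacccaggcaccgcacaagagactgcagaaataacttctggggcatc
Chad, chr11:94564797-94565046, plus strand: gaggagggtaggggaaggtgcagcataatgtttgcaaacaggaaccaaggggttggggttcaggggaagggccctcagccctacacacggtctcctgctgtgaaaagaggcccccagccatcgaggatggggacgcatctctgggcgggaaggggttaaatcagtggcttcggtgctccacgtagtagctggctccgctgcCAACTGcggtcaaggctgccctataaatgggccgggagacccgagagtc
Thbs4, chr13:92794819-92795068, minus strand: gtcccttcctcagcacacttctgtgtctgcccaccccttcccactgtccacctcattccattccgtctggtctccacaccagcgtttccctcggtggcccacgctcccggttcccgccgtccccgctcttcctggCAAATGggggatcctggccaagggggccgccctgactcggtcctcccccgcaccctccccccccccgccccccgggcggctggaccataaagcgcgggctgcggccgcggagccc
Fmod, Chad and Thbs4 each held 1 such match and Tnmd held none in this window. A match was present in 4 of the 6 members, and 66.2% of all 32851 promoters of the same length did. The windows differed in base composition, with 38.4% G and C before Tnmd, 51.2% before Fmod, 60.4% before Chad and 70.8% before Thbs4.

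Tnmd, the tenomodulin gene, read 7.74, 7.79 and 7.80 on the arrays labelled MLC-SOCS-3, against 7.44, 7.97 and 8.03 on the control arrays. Each array labelled MLC-SOCS-3 thus lay between control replicate 1 and the other controls, within a span of 0.067, while the controls spanned 0.58. The difference was -0.04 (95% interval -0.44 to 0.35, limma, adjusted p = 0.98).

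The leucine-rich repeat proteins of the matrix were Fmod, Kera and Chad. Fmod encodes fibromodulin, which binds collagen fibrils and sets their thickness. It read 9.11, 9.18 and 8.98 on the arrays labelled MLC-SOCS-3, against 8.93, 9.41 and 9.48 on the control arrays. Control replicate 1 was the lowest array and the other controls were the highest, so the groups overlapped. The difference of -0.18 (95% interval -0.57 to 0.20) had an adjusted p of 0.88 in limma.

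Chad encodes chondroadherin, a leucine-rich protein that binds collagen and integrins in cartilage and tendon. It had the widest span over the 6 arrays of the 10 genes, 1.18. Its values were 7.39, 7.89 and 7.25 on the arrays labelled MLC-SOCS-3, against 6.93, 8.11 and 8.08 on the control arrays. The difference of -0.20 had a 95% interval of -1.07 to 0.67 (limma, adjusted p = 0.95), which leaves room for a change of either sign.

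Kera encodes keratocan, a proteoglycan best known from the cornea and also made by tendon cells. It read 6.64, 6.61 and 6.26 on the arrays labelled MLC-SOCS-3, against 6.17, 6.62 and 6.56 on the control arrays. Each group thus held 1 low array, MLC-SOCS-3 replicate 3 and control replicate 1. The difference was 0.06 (95% interval -0.34 to 0.45, limma, adjusted p = 0.97).

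Thbs4 and Comp encode thrombospondin 4 and cartilage oligomeric matrix protein, members of the pentameric branch of the thrombospondin family. Thbs4 protein is concentrated where muscle fibres insert into tendon, and COMP helps to assemble collagen fibrils. Thbs4 read 10.23, 10.39 and 10.36 on the arrays labelled MLC-SOCS-3, against 10.01, 10.50 and 10.42 on the control arrays. The arrays labelled MLC-SOCS-3 again lay between control replicate 1 and the other controls, with a difference of 0.02 (95% interval -0.33 to 0.36, limma, adjusted p = 0.99).

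Comp read 6.67, 6.74 and 6.65 on the arrays labelled MLC-SOCS-3, against 6.76, 7.06 and 6.93 on the control arrays. The groups did not overlap, but the highest array labelled MLC-SOCS-3 and the lowest control array, replicate 1, lay close together. Its difference, -0.23 (95% interval -0.45 to -0.0026), missed the threshold in limma (adjusted p = 0.83, unadjusted p = 0.048). With each array centred on its median, the unadjusted p was 0.080 and the groups overlapped.

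Cilp2 encodes cartilage intermediate layer protein 2, a matrix protein related to one of cartilage. It read 7.10, 6.90 and 6.98 on the arrays labelled MLC-SOCS-3, against 7.32, 7.40 and 7.33 on the control arrays. The controls were tightly grouped, with means of 6.99 ± 0.10 in muscle labelled MLC-SOCS-3 and 7.35 ± 0.05 in control muscle (SD, n = 3 each), and every control array lay above every array labelled MLC-SOCS-3. The difference, -0.36 (95% interval -0.55 to -0.17), equals a 1.28-fold difference and missed the threshold in limma (adjusted p = 0.73, unadjusted p = 0.0035). Cilp2 and Comp both lie on chromosome 8, with 24 protein-coding genes between them in the RefSeq gene order.

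Prg4 encodes lubricin, the lubricant of joint and tendon surfaces. It read 6.22, 7.13 and 7.24 on the arrays labelled MLC-SOCS-3, against 6.56, 7.04 and 6.76 on the control arrays. MLC-SOCS-3 replicate 1 was the lowest of all 6 arrays, and the other arrays labelled MLC-SOCS-3 were the highest. The difference was 0.08 (95% interval -0.63 to 0.79, limma, adjusted p = 0.98).

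**Figure D2:**
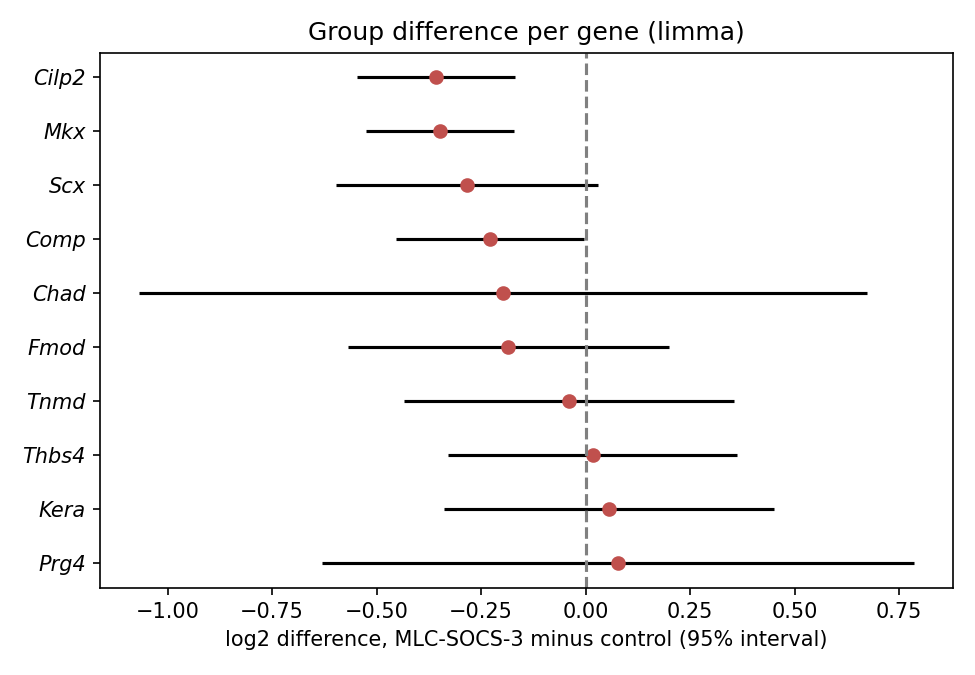
Log2 difference of each gene, MLC-SOCS-3 minus control (horizontal axis), as a point with its 95% interval from limma, ordered from the most negative at the top. The intervals of Cilp2, Mkx and Comp lie below 0 before adjustment, and that of Chad is the widest, from -1.07 to 0.67.

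The 10 genes did not vary as 1 group over the arrays. Of their 45 pairs, 33 had a positive Pearson correlation over the 6 arrays, with a median r of 0.38, and 7 pairs had r above 0.8. Tnmd and Thbs4 (r = 0.94), Fmod and Chad (0.94), Tnmd and Chad (0.88), Thbs4 and Chad (0.87) and Tnmd and Fmod (0.87) were the closest pairs, followed by Fmod and Comp (0.82) and Mkx and Cilp2 (0.81). Scx correlated negatively with Kera (r = -0.73), Thbs4 (-0.56), Tnmd (-0.52), Chad (-0.48) and Fmod (-0.30), and positively with Mkx (0.68), Cilp2 (0.65) and Comp (0.24). These values describe 6 arrays that share the group difference and any difference in tissue sampling, and carry no test.

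**Figure D3:**
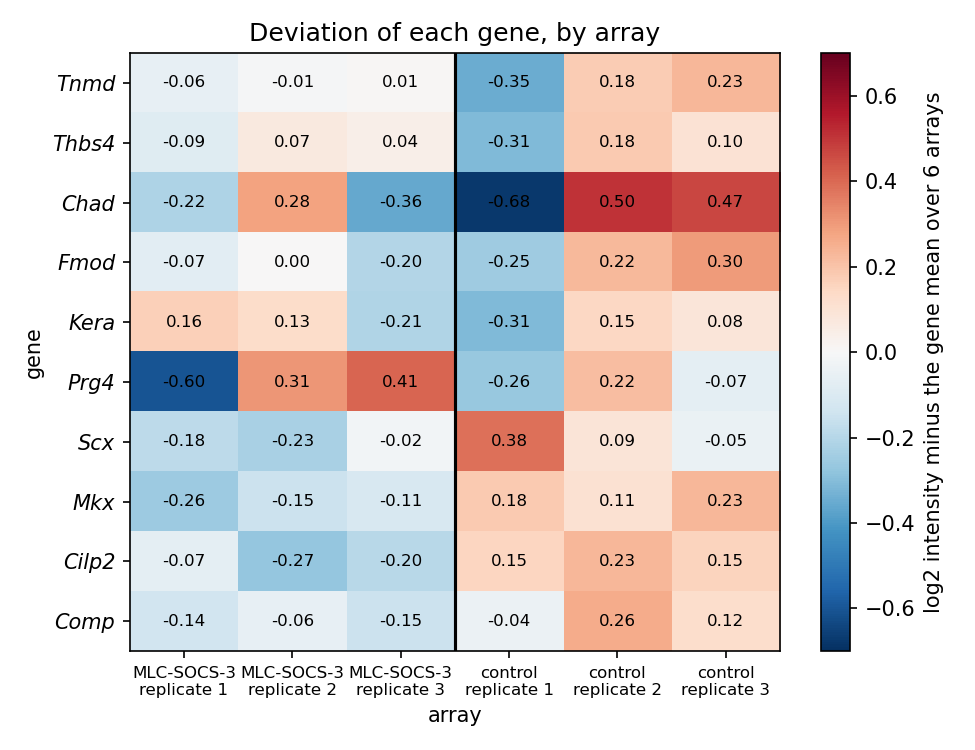
Log2 intensity of each gene minus its own mean over the 6 arrays (colour and printed value), with the arrays labelled MLC-SOCS-3 on the left and the control arrays on the right of the line. Control replicate 1 is low for Tnmd, Thbs4, Chad, Fmod and Kera and high for Scx. Mkx, Cilp2, Comp and Scx are negative on every array labelled MLC-SOCS-3.

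The mean deviation of the 10 genes was -0.15, 0.0072 and -0.079 on the arrays labelled MLC-SOCS-3, against -0.15, 0.21 and 0.16 on the control arrays. Control replicate 1 was thus about as low as the lowest array labelled MLC-SOCS-3, and the difference in the summed level rested on control replicates 2 and 3. The span over the 3 control arrays had a median of 0.47 over the 10 genes and 0.19 over all genes, while over the arrays labelled MLC-SOCS-3 it was 0.21 for the 10 genes and 0.19 for all genes. In these bulk samples, fewer tendon or fascia cells and less RNA per cell cannot be told apart.

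Leaving out control replicate 1 changed the counts most. All 10 differences were then negative, the smallest being those of Prg4 (-0.035) and Kera (-0.086). The share of all genes with a negative difference was not counted for that setting. An unadjusted p under 0.05 was found for 6 genes (Mkx, Tnmd, Cilp2, Fmod, Comp and Chad), where 2.32% of all genes were lower at that level. Of the 10 genes, 7 did not overlap, where 11.4% of all genes did so in that direction. Chad was at -0.58 ± 0.21 (SE), Fmod at -0.35 ± 0.09 and Tnmd at -0.23 ± 0.07 without that array. No probe set passed limma's adjustment in that setting, and the adjusted p-values of the 10 genes lay between 0.974 and 0.998. Without control replicate 2, which had the highest mean of the 10 genes, 5 differences were negative and the median difference was -0.056.

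Mkx and Cilp2 had an unadjusted p under 0.05 in each of the 6 settings that left out 1 array. Their differences ranged from -0.38 to -0.31 for Mkx over 12 alternative settings and from -0.41 to -0.31 for Cilp2 over 13. In none of them did an adjusted p fall under 0.05, the smallest being 0.42 for Cilp2, from a fit to annotated probe sets alone in which the variance followed the mean and was moderated robustly. That fit called 0.047% of its 23410 probe sets, none of them a member.

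Genes around the members in tendon biology were read from lists of regulators, collagens, proteoglycans and other matrix genes. None of the genes in these lists passed over all probe sets. Of 22 measured regulators and growth factors, 12 were negative and 10 positive, with a median of -0.022 and none at an unadjusted p under 0.05. Egr1, a mechanically induced factor that can activate tendon genes, was at -0.67 ± 0.30 (SE), reading 7.30 ± 0.30 in muscle labelled MLC-SOCS-3 and 7.97 ± 0.54 in control muscle (SD, n = 3 each), and the homeobox gene Six2 was at -0.20 ± 0.10.

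The collagens that form tendon fibrils did not share the sign of Mkx, Cilp2 and Comp. All 11 fibrillar and fibril-associated collagen genes had positive differences, with a median of 0.099, and none had an unadjusted p under 0.05. Col1a1 and Col1a2, the chains of type I collagen, were at 0.07 ± 0.20 (SE) and 0.10 ± 0.14, and Col3a1 was at 0.28 ± 0.14. Their mean deviation was -0.17, 0.26 and 0.11 on the arrays labelled MLC-SOCS-3, against -0.052, -0.066 and -0.081 on the control arrays, so the array labelled MLC-SOCS-3 replicate 1 lay below every control.

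The other small leucine-rich proteoglycans split by sign, with 4 of 11 negative and a median of 0.064. Lum, the gene of lumican, was at 0.43 ± 0.22 (SE), Dcn, the gene of decorin, at 0.05 ± 0.08, and Bgn, the gene of biglycan, at -0.05 ± 0.09. Among 23 other matrix genes of tendon and fascia, 10 were negative. The hyaluronan synthase genes Has2 and Has1 were at -0.34 ± 0.14 and -0.23 ± 0.10, both below the median probe set. Has2 alone in that list of 23 had an unadjusted p under 0.05, where 3.5% of all genes were lower at that level. Genes of the junction between muscle and tendon gave 4 of 11 negative, with its collagen Col22a1 at -0.09 ± 0.07.

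**Figure D4:**
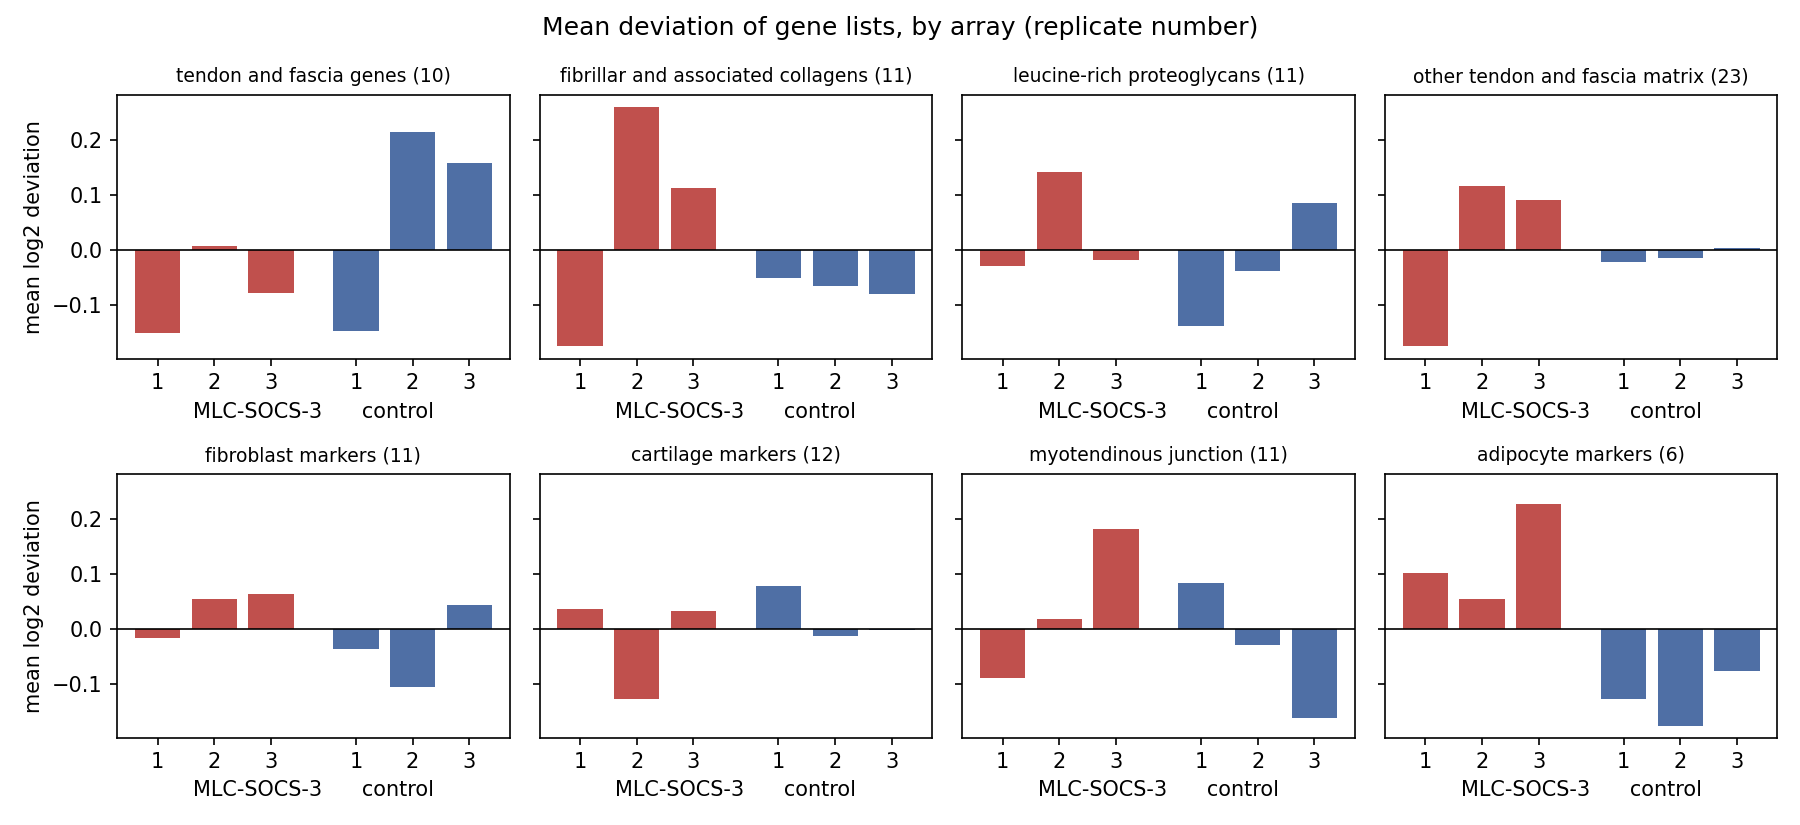
Mean log2 deviation of the measured genes of each list (number in brackets) on the 3 arrays labelled MLC-SOCS-3, left in red, and the 3 control arrays, right in blue, with bars drawn from 0. The tendon and fascia genes are low on control replicate 1 (-0.15) and high on control replicates 2 (0.21) and 3 (0.16), while the collagen list lies between -0.081 and -0.052 on the 3 controls.

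Markers of other tissues that could travel with tendon were read beside these values, and their part in the result was not tested. Interstitial fibroblast markers had 2 of 11 genes negative, and their mean deviation was -0.017 to 0.063 on the arrays labelled MLC-SOCS-3 and -0.11 to 0.043 on the control arrays. In that list 1 gene was lower without overlap between the groups and 2 were higher without overlap. The lower gene was Pi16, a gene of adventitial fibroblasts, at -0.28 ± 0.08 (SE, limma, unadjusted p = 0.014). The higher genes were Pdgfra at 0.16 ± 0.07 and Gsn at 0.16 ± 0.07. Over all genes 7.76% were lower and 4.52% higher without overlap. Cartilage markers had 8 of 12 negative, with 5 of 12 above the median probe set, and their mean deviation was -0.13 to 0.036 on the arrays labelled MLC-SOCS-3 and -0.013 to 0.077 on the control arrays. The cartilage list was highest on control replicate 1, where Tnmd, Fmod, Thbs4, Chad and Kera were lowest. Bone markers had 2 of 6 negative, with 3 of 6 above the median probe set. Their mean deviation was -0.12 to 0.29 on the arrays labelled MLC-SOCS-3 and -0.17 to 0.052 on the control arrays.

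Nerve and sheath markers were negative in 6 of 6 genes, with mean deviations of -0.074 to -0.0096 on the arrays labelled MLC-SOCS-3 and 0.014 to 0.076 on the control arrays. Adipocyte markers were positive in 6 of 6 genes, at 0.055 to 0.23 on the arrays labelled MLC-SOCS-3 and -0.18 to -0.076 on the control arrays. Of these genes 3 of 6 lay above the median probe set. Adipoq, below it, was at 0.64 ± 0.10 (SE), and the bright Fabp4 was at 0.09 ± 0.08 with overlapping groups. Skeletal muscle fibre markers, which define the labelled tissue, were all above the median probe set. Their mean deviation was -0.032 to -0.017 on the arrays labelled MLC-SOCS-3 and -0.0022 to 0.054 on the control arrays. In the values as deposited, the means of the nerve, adipocyte and muscle fibre lists each separated the labelled groups, and the mean of the tendon and fascia genes did not. The nearest arrays were close for muscle fibre (-0.017 against -0.0022) and nerve (-0.0096 against 0.014). The array medians themselves ran from 5.98 to 6.04. In both lists the nearest arrays were MLC-SOCS-3 replicate 2 and control replicate 3, with array medians of 5.98006 and 6.00113. Their muscle fibre levels, 12.3225 and 12.3373, lay closer together than these medians. Centring each array on its median therefore removes the muscle fibre separation. Their nerve levels, 7.126 and 7.14933, lay slightly further apart than the medians, so the nerve separation stays by little. The adipocyte groups lay further apart than the whole span of the medians.

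The genes whose profile over the 6 arrays was most like the mean of the 10 members, among 11400 other genes above the median probe set, were Gimap6 (r = 0.98), Parva (0.96), Maml2 (0.96), Zfp612 (0.96) and Selenow (0.96). With 6 arrays, 44 of the 11400 genes had r above 0.9. None of the 5 belongs to the tendon, collagen or matrix lists.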

How the data were processed

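RNA of tibialis anterior muscle was measured in 6 samples, each on its own Affymetrix array. The authors deposited log2 intensities. Per the submitters' processing notes, these came from Affymetrix Expression Console by RMA, whose version, like the genome build, is not stated there. RMA corrects background, equalises the arrays' distributions and summarises probes, which compresses differences of dim genes. The values (1.41 to 15.1) were used as deposited, in all 6 columns. The number of arrays limits the precision.

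Of 35557 probe sets, 23410 are in the platform annotation, 21789 with 1 symbol and 1621 with several. Symbols were updated by Entrez identifier (GRCm38.p6). The brightest probe set stood for each gene. Groups came from the titles. Limma 3.58.1 in R 4.3.3 (lmFit, eBayes, two-sided, all 6 arrays, no covariate) gave differences, moderated SEs and Benjamini-Hochberg p-values over every probe set (threshold 0.05), and was tested on simulated data. No list was tested as a set.

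All 10 members are named. From each other list the 3 genes with the smallest p and the 2 brightest were eligible, and the 5 most alike in profile were taken by Pearson's r over the 6 arrays. The members and lists were chosen with earlier results of these data known. Promoter sequences are RefSeq's.

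Alternatives left out each array, added the replicate number as a block, centred or quantile-normalized the arrays, changed the variance moderation, and restricted the probe sets.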

Additional observations from a re-analysis of the deposited data

How the results depend on the processing

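Over 129 alternative values of the 10 genes' differences, 118 kept their sign and none had an adjusted p under 0.05. Mkx, Scx, Cilp2, Fmod and Comp stayed negative in every setting run. The sign turned only when an array was left out: Kera was at -0.013 without MLC-SOCS-3 replicate 1 and -0.086 without control replicate 1. Thbs4 was at -0.014 and -0.00074 without MLC-SOCS-3 replicates 2 and 3 and -0.13 without control replicate 1. Prg4 was at -0.058, -0.11 and -0.035 without the same 3 arrays. Tnmd was at 0.039 and 0.066 without control replicates 2 and 3, and Chad at 0.0059 without control replicate 2. The values without 1 array ran from -0.23 to 0.066 for Tnmd, -0.13 to 0.11 for Thbs4, -0.58 to 0.0059 for Chad, -0.086 to 0.18 for Kera and -0.11 to 0.40 for Prg4. Leaving out 1 array gave 2 to 6 genes with an unadjusted p under 0.05 and 3 to 7 genes without overlap (3 each with all arrays), the highest without control replicate 1. Over all genes the shares in either direction were then 3.6% to 5.43% and 20.6% to 25.1%, against 4.86% and 12.3% with all arrays. The median difference ran from -0.27 to -0.047. Limma called 0 to 1 probe sets of the whole table when an array was left out, the 1 without control replicate 2. It called 11 with annotated probe sets alone, a mean-variance trend and robust moderation, a setting chosen after seeing the data, and none of these was a tendon or fascia gene.

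With the replicate block, 2 genes had an unadjusted p under 0.05 (3.73% of all genes) and limma called 0 probe sets. Same-numbered arrays did not deviate together (r = -0.049, -0.040 and -0.14 over 19938 genes), while differently numbered arrays gave r of -0.080 to 0.13. The labels do not say what the number stands for, and whether same-numbered arrays were handled together was not tested. Centring and quantile normalization each left 2 genes with an unadjusted p under 0.05 (4.7% and 4.82% of all genes) and 2 without overlap (12.3% and 11.9%). With annotated probe sets alone, 4 genes had such a p, with Scx added, where 6.82% of all genes did. With the trend and robust moderation as well, 4 genes had one, where 6.58% of all genes did. The unadjusted p of Scx in limma was 0.048 and 0.025 in these fits. Centring moved the share of all genes with a negative difference to 48.8%. Averaging several probe sets of a gene could not change the members, which have 1 each. Mkx was not tested when only probe sets above the median level were kept.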
